A study of Mus musculus with 5 samples.

Results

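Collagens, laminins and integrins form the extracellular scaffold of tissues and the receptors by which cells hold on to it. The genes described here were taken by name from the array's probe set annotation, as all mouse symbols made of Col, a number, a and a number, of Lama, Lamb or Lamc with a digit, or starting with Itga or Itgb. This gave 72 of the 12393 genes with a probe set of their own, covered by 121 of 20380 probe sets. They comprise 36 collagen chains, 10 laminin chains, 22 integrin subunits and 4 genes that carry an Itgb name but encode no integrin subunit (Itgb1bp1, Itgb1bp2, Itgb3bp and Itgbl1).

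Collagen chains join in threes into rope-like helices. The fibrillar types, such as type I, give connective tissue its tensile strength, and type IV builds the sheet of the basement membrane, the thin mat that surrounds brain capillaries. Laminins are cross-shaped assemblies of an alpha, a beta and a gamma chain and form the other sheet of that mat. Integrins are receptors of an alpha and a beta subunit that bind these proteins outside the cell and link to actin within it. In the brain, basement membrane proteins come mainly from endothelial cells, pericytes and astrocyte endfeet, whereas integrins are found on vascular cells, glia and neurons.

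The measurements were Affymetrix array signals from the ventromedial hypothalamus (VMH) of C57Bl/6 mice, cut by laser from thin brain sections. Electroconvulsive seizure (ECS) was a 25 mA current for 1 sec through ear clips, at 100 pulses/sec of 0.5 msec, under isoflurane. The 5 groups were 1 shock with collection after 2 h, 1 shock with collection after 6 h, 7 shocks with collection after 2 h, 7 shocks with collection after 6 h, and sham animals that were handled alike without current and collected after 2 h. The sources name no age or sex for the animals, and both 6 h groups differ from sham in collection time as well as in treatment. Each group is 1 array of RNA pooled from 2 or 3 animals and amplified from 2 ng. There is thus no spread between replicates and no test, and a difference is called only by being 2-fold or more. Precision is limited by having 1 array a group.

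The deposited values are MAS5 signals, a linear brightness per probe set. The median signal per array lay between 20.3 and 31.6, and relative to sham the arrays were shifted by -0.13 (1 shock, 2 h), 0.40 (1 shock, 6 h), 0.50 (7 shocks, 2 h) and 0.48 (7 shocks, 6 h) on the log2 scale. Signals below are as deposited. The log2 differences were taken after subtracting from every array its median, which removes those shifts. The single-shock 6 h array stood apart by a set of very low genes, among them the cortical neuron factor Tbr1, which read 0.9 there and 47.8 to 154.3 elsewhere. The sample titles name the VMH while a description field says PVN. Of the VMH neuron markers 5 were on the array and all 5 were bright enough to be kept, and the VMH factor Nr5a1 read 50.4, 173.3, 145.6 and 152.1 on the ECS arrays (in the order of groups above) against 78.5 on the sham array. Of the PVN markers 4 were on the array and 2 were kept, the peptide genes Oxt and Trh. Oxt read 11.5 to 61.8 on the ECS arrays and 12.6 on the sham array. Trh read 112.1 to 184.0 on the ECS arrays and 90.8 on the sham array. Below the limit, Avp read 5.1 to 54.8 and the PVN factor Sim1 1.1 to 14.3. Which label is right was not tested.

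**Figure D1:**
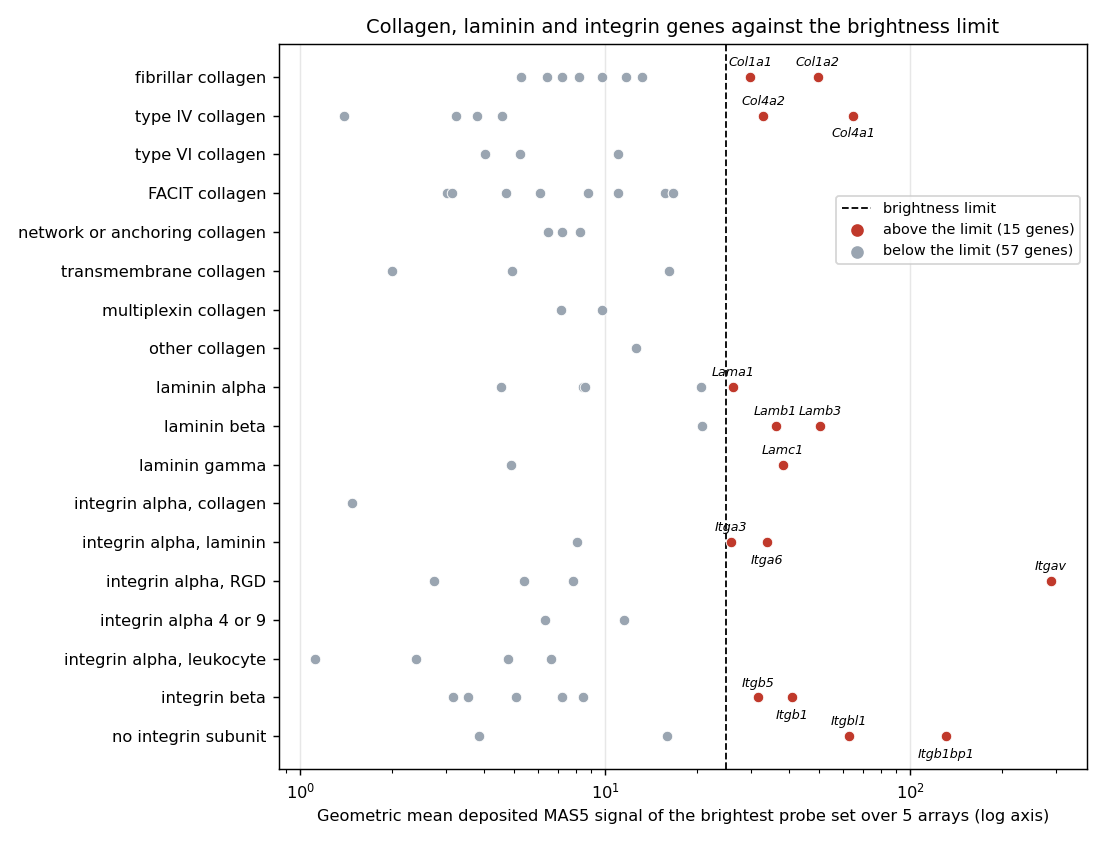
Geometric mean deposited MAS5 signal over the 5 arrays (log x axis) for each of the 72 genes, by role; red points are the 15 genes above the brightness limit (dashed line at 24.9) and grey points the 57 below it. Most grey points lie far to the left of the limit, and no type VI, FACIT, transmembrane, multiplexin or leukocyte integrin gene reaches it; brightness of different probe sets is no measure of relative abundance.

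Most of the scaffold genes were dim in this tissue. A probe set was kept when its mean log2 signal was in the top 50%, which is a geometric mean signal of 24.9 over the 5 arrays. Of the 72 genes, 15 had a probe set above that limit (20.8%), against 6650 of all 12393 genes (53.7%). Above it were 4 of 36 collagens, 4 of 10 laminins, 5 of 22 integrin subunits and 2 of the 4 remaining genes. Type I (Col1a1, Col1a2) and the main pair of type IV chains (Col4a1, Col4a2) were the collagens that passed. The laminins were Lama1, Lamb1, Lamb3 and Lamc1, and the integrins Itgav, Itga3, Itga6, Itgb1 and Itgb5. The members nearest the limit from above were Itga3, Lama1, Col1a1 and Itgb5, with geometric mean signals of 25.8, 26.3, 29.9 and 31.6. Nearest from below were Lamb2 (20.7), Lama2 (20.5), Col20a1 (16.7) and Col9a3 (16.7).

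Against sham, the 15 genes above the limit did not move as a block. At 2 h after 1 shock, 5 of them read at least 2-fold higher than sham (Itgb1bp1, Lama1, Itgb5, Col1a2 and Col4a1) and 2 lower (Itgb1 and Lamc1). The background was 12.3% of the 6650 genes past 2-fold (5.98% higher, 6.29% lower), and 20% in the dimmer 50% of them. At 6 h after 1 shock, 4 were higher (Lama1, Itgb1bp1, Col4a2, Itgb5) and 4 lower (Lamc1, Itgb1, Col1a1, Col1a2), with a background of 14.1% of all genes (6.74% higher, 7.35% lower) and 21.6% of the dimmer 50%. At 2 h after 7 shocks, 5 were higher (Lama1, Col1a2, Lamb3, Itgb5, Col4a2) and 3 lower (Lamc1, Lamb1, Itga6), beside 13.3% (6.57% higher, 6.72% lower) and 20.7%. At 6 h after 7 shocks, 3 were higher (Lama1, Itgb1bp1, Col1a1) and 1 lower (Lamc1), beside 13.8% (6.78% higher, 7.07% lower) and 21.4%.

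These 15 genes were thus past 2-fold in 46.7%, 53.3%, 53.3% and 26.7% of cases in the same order of groups. That is above the background of all genes, but 13 of the 15 belong to the dimmer 50%, which was added as a yardstick after the values were seen. Members that passed the limit through 1 bright array had to differ, so these shares describe the readings and support nothing about the family. The median log2 difference of the 15 was 0.37, -0.47, 0.50 and 0.03, against 0.01, 0.06, 0.01 and 0.01 for all genes, so it had no single direction. Over the 5 arrays a member's highest and lowest centred values were a median of 3.09-fold apart, against 1.97-fold for all genes and 2.42-fold for the dimmer 50%. The split of higher and lower members moved with the scaling. Without rescaling it was 8 and 2 at 2 h after 7 shocks, 6 and 1 at 6 h after 7 shocks and 4 and 2 at 6 h after 1 shock, which was also 4 and 2 after quantile normalization.

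**Figure D2:**
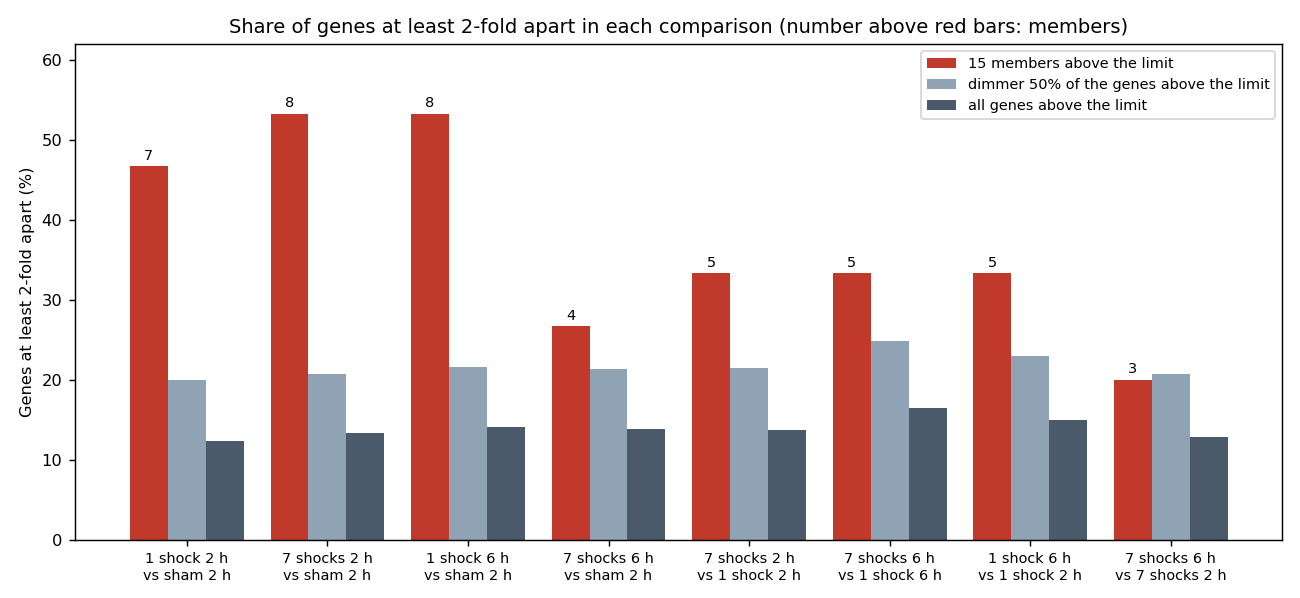
Percentage of genes at least 2-fold apart (y axis, from 0) in each of the 8 comparisons for the 15 members above the limit (red, with their number), the dimmer 50% of the genes above the limit (light) and all genes above the limit (dark). The red bars are highest at 53.3% for 7 shocks at 2 h and 1 shock at 6 h against sham, and the 20% for 7 shocks at 6 h against 2 h lies beside 20.7% in the dimmer 50%.

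**Figure D3:**
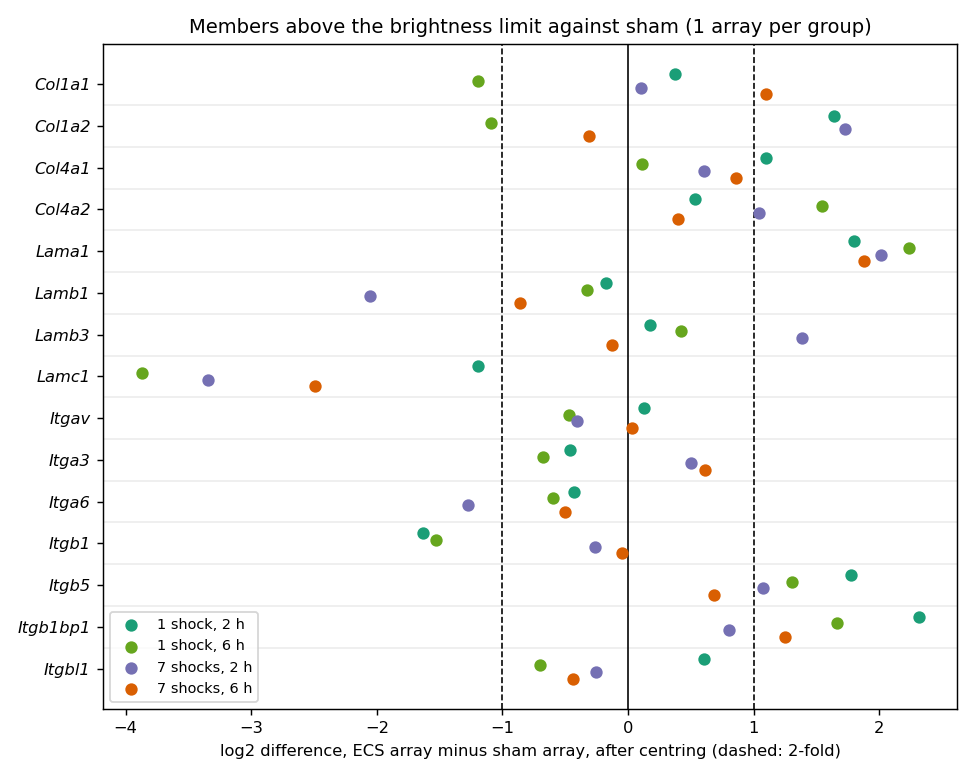
Log2 difference between each ECS array and the sham array (x axis, after centring) for the 15 members above the limit, coloured by group; dashed lines mark 2-fold and each point is 1 array against 1. All 4 Lama1 points lie right of the upper 2-fold line and all 4 Lamc1 points left of the lower one, while the Itgav points lie between -0.47 and 0.12.

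Among laminins, Lamc1 and Lama1 were past 2-fold from sham on all 4 ECS arrays, in opposite directions. Lamc1, the gamma chain present in most laminins, read 58.6 (1 shock, 2 h), 12.3 (1 shock, 6 h), 19.7 (7 shocks, 2 h) and 36.1 (7 shocks, 6 h), against 148.6 on the sham array. All 4 ECS arrays were below sham, with log2 differences of -1.19, -3.87, -3.35 and -2.49, and its 14.6-fold range over the 5 arrays was the widest of the 15. A second Lamc1 probe set, just under the limit, read 16.7, 31.8, 23.0 and 21.2 on the ECS arrays and 28.8 on the sham array. Its differences were -0.61, -0.26, -0.81 and -0.91, all below 0 and none past 2-fold, so the size of the Lamc1 difference rests on 1 probe set.

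Lama1, the alpha chain of the early basement membrane laminin, ran the other way. It read 23.3, 46.5, 42.8 and 38.3 on the ECS arrays (1 shock 2 h, 1 shock 6 h, 7 shocks 2 h, 7 shocks 6 h), against 6.5 on the sham array. Every ECS array was higher, by 1.80, 2.23, 2.01 and 1.87 on the log2 scale. The sham reading is close to the 25th percentile of all values (6.1) and enters all 4 differences. It lay far below the limit of 24.9, so Lama1 passed that limit through brighter ECS arrays. A 2-fold lower reading was hardly open for this gene, and the filter partly set the direction. Among the ECS arrays themselves Lama1 differed by at most 0.43, and the gene has a single probe set on the array.

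The beta chains Lamb1 and Lamb3 differed from sham mainly at 2 h after 7 shocks, in opposite directions. Lamb1, which pairs with Lamc1 in the widespread laminins, read 39.5, 51.8, 16.0 and 37.6 on the ECS arrays in the same order of groups, against 49.2 on the sham array. The 7-shock 2 h array was the low one, at -2.06, and the other 3 differences were -0.18, -0.33 and -0.86. Its probe set carries a suffix for possible cross-hybridisation. Both dimmer Lamb1 probe sets disagreed with each other there, at -1.29 and 0.68. Lamb3, a chain of the epithelial anchoring laminin, read 33.6, 58.4, 123.5 and 41.9, against 32.5 on the sham array. Here the 7-shock 2 h array was the high one, at 1.38, and the others lay between -0.13 and 0.42.

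The remaining laminin chains were dim. Lama2, of the laminin of muscle and vessel walls, read 10.4 to 30.3. Lama4, the main endothelial alpha chain, read 1.3 to 20.7 on its brightest probe set, and Lama5, also endothelial, 1.1 to 17.9. Lamb2 read 11.7 to 39.1, with its highest value at 6 h after 7 shocks, and Lama3 and Lamc3 stayed at or below 15.2. Lama1, Lamb1 and Lamc1, the chains of 1 laminin complex, were thus all above the limit, while the vascular alpha chains Lama4 and Lama5 were below it. Lama1 passed it only through brighter ECS arrays. Brightness of different probe sets is no measure of relative abundance, so which laminin prevails cannot be read from this.

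Type IV collagen was above sham on every ECS array for both chains of its main network. Col4a1 read 73.7, 53.2, 81.6 and 96.2 on the ECS arrays (1 shock 2 h, 1 shock 6 h, 7 shocks 2 h, 7 shocks 6 h), against 37.1 on the sham array, and differed by 1.10, 0.11, 0.61 and 0.86. Col4a2 read 22.0, 66.5, 50.3 and 31.3 on the ECS arrays, against 16.4 on the sham array, with differences of 0.53, 1.55, 1.04 and 0.40. The sham array was lowest for both. The Col4a2 sham reading lay below the limit of 24.9, so this gene passed that limit through brighter ECS arrays. For Col4a2 the filter thus partly set the direction. After centring, Col4a1 stood highest at 2 h after 1 shock and Col4a2 at 6 h after 1 shock, whereas without rescaling Col4a1 was furthest above sham at 6 h after 7 shocks (1.35, against 0.97 at 2 h after 1 shock). The call of Col4a2 at 2 h after 7 shocks was lost at 0.85 when the pseudocount added before log2 was 6.1 in place of 1.2, called the larger pseudocount here. A dimmer Col4a1 probe set read 0.8, 0.4, 0.6 and 4.7 against 11.9 on the sham array, in the opposite direction and mostly under the 25th percentile of all values.

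Col4a1 and Col4a2 lie head to head, and their start regions are shown because the pair shares them while its readings differed in order. In RefSeq's GRCm38.p6 promoter table, which covers 250 bases before to 50 after each start, the start sites are 21 bases apart and the windows overlap by 78 bases at chr8:11312777-11312854. The shared stretch is written 5′ to 3′ on each gene's own strand (minus for Col4a1, plus for Col4a2), and capitals mark its 1 GC box, GGGCGG or its complement.
Col4a1: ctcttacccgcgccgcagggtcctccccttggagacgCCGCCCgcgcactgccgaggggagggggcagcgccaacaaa
Col4a2: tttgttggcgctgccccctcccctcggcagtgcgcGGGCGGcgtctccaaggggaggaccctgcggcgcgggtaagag

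The other type IV chains, which build the networks of kidney and other specialised membranes, were dim on all arrays. Col4a3 read 0.4 to 4.5, its head-to-head partner Col4a4 1.3 to 5.3, Col4a5 0.2 to 11.1 and Col4a6 0.4 to 15.3. With the array medians at 20.3 to 31.6, none of the 4 reached its array's median anywhere. All 4 had their highest reading on one of the 7-shock arrays, which were also the brightest arrays.

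Type I collagen separated its chains. Col1a2 read 91.2 at 2 h after 1 shock, 18.9 at 6 h after 1 shock, 151.6 at 2 h after 7 shocks and 35.5 at 6 h after 7 shocks, against 31.3 on the sham array. Both 2 h ECS arrays stood above the rest, with log2 differences of 1.64 and 1.73, while the 6 h arrays were at -1.09 (1 shock) and -0.31 (7 shocks). A dimmer Col1a2 probe set read 10.1, 8.7, 3.6 and 8.3 against 6.2, with 0.74 and -1.13 at 2 h after 1 and 7 shocks, so it did not carry the second of these. Col1a1 read 28.1, 13.1, 36.6 and 72.9 on the ECS arrays, against 23.6 on the sham array. Its high array was 7 shocks at 6 h (1.09, and 0.95 with the larger pseudocount) and its low one 1 shock at 6 h (-1.19), while a dimmer probe set gave -0.17 and -0.57 there. The low values at 6 h after 1 shock were within 2-fold after quantile normalization, at -0.89 for Col1a1 and -0.85 for Col1a2.

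The 250 bases before the Col1a2 start (chr6:4505368-4505617, plus strand, GRCm38.p6) are shown because this gene's 2 h readings stood furthest above sham among the collagens. Capitals mark 2 GC boxes and 1 CCAAT box.
Col1a2: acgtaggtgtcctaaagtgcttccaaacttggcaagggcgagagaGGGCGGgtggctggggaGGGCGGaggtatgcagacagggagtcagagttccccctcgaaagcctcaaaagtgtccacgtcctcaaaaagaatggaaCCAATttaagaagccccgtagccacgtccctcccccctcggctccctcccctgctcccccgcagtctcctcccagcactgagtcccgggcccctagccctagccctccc

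**Figure D4:**
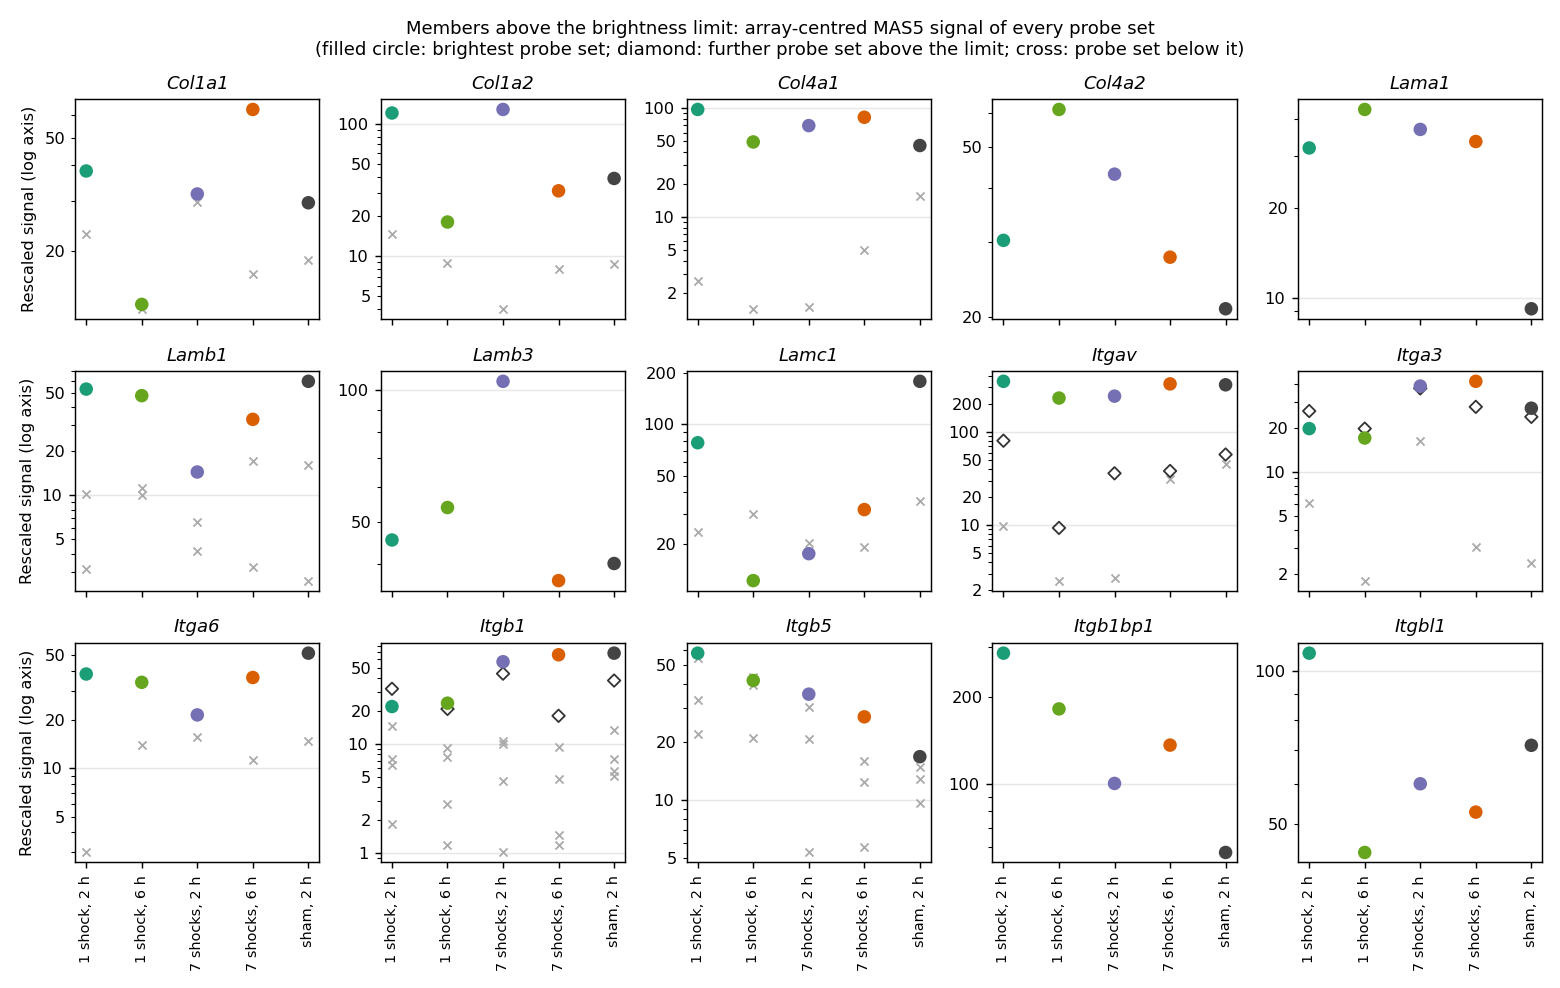
MAS5 signal after array centring (log y axis, pseudocount included) of every probe set of the 15 members above the limit on the 5 arrays, with the ECS groups left of sham; filled circles are the brightest probe set, diamonds other probe sets above the limit and crosses those below it. For Itgb5 the sham array holds the lowest filled circle, whereas for Lamc1 the crosses stay within 2-fold of sham while the filled circles range 14.6-fold.

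Among integrin alpha subunits, Itgav, the RGD-binding chain that pairs with several beta subunits, was the steadiest of the 15 genes. It read 266.3, 254.0, 287.1 and 383.7 on the ECS arrays (1 shock 2 h, 1 shock 6 h, 7 shocks 2 h, 7 shocks 6 h), against 267.7 on the sham array. After centring, its values spanned 1.51-fold, with differences from sham of 0.12, -0.47, -0.40 and 0.03. A second Itgav probe set above the limit read 60.4, 9.1, 41.6 and 43.5, against 46.8 on the sham array. Its differences were 0.49, -2.62, -0.67 and -0.59, so it was past 2-fold on the single-shock 6 h array, where the brightest probe set was not. A dimmer probe set of Itgav read 6.3, 1.6, 2.0 and 35.6, against 37.1.

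Laminin-binding alpha subunits lay mostly within 2-fold of sham. Itga6, of the laminin receptors of endothelial and neural stem cells, read 28.2, 36.5, 24.3 and 41.7 on the ECS arrays, against 42.2 on the sham array, and only the 7-shock 2 h array passed 2-fold (-1.27, and -0.77 without rescaling). A dimmer Itga6 probe set gave 0.09 at 2 h after 7 shocks, so it did not carry that call. At 2 h after 1 shock it gave -2.30, with a reading of 1.1 against 11.2 on the sham array. Itga3, a laminin receptor chain of epithelia and neurons, read 13.9, 17.6, 44.6 and 47.5, against 21.6 on the sham array. Both 7-shock arrays were above the single-shock ones, by 0.96 at 2 h and 1.29 at 6 h, and a second probe set above the limit gave 0.51 and 0.49. The mean of both left 0.89 at 6 h, within 2-fold. Itga7, the muscle laminin receptor chain, stayed at 1.0 to 14.7.

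Itgb1, the beta subunit shared by most collagen and laminin receptors, was low on both single-shock arrays. It read 15.7 at 2 h and 25.0 at 6 h after 1 shock, 66.6 at 2 h and 76.3 at 6 h after 7 shocks, and 56.1 on the sham array. The differences from sham were -1.63 and -1.53 after 1 shock, and -0.26 and -0.05 after 7 shocks. Set against 1 shock directly, 7 shocks gave 1.37 at 2 h and 1.48 at 6 h. The second Itgb1 probe set above the limit read 23.4, 22.0, 51.5 and 20.1 against 30.9 on the sham array. It gave -0.25 and -0.87 after 1 shock and 0.21 and -1.08 after 7 shocks, so it did not repeat the split by shock number at 6 h. The mean of both probe sets left 7 shocks against 1 at 0.91 (2 h) and 0.63 (6 h), and 1 shock against sham at -0.94 at 2 h.

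Itgb5, a partner of Itgav in a vitronectin receptor, was above sham on all 4 ECS arrays. It read 42.9 (1 shock, 2 h), 44.8 (1 shock, 6 h), 40.9 (7 shocks, 2 h) and 30.5 (7 shocks, 6 h), against 12.9 on the sham array, with differences of 1.78, 1.31, 1.07 and 0.68. The sham reading lay below the limit of 24.9, so Itgb5 passed that limit through brighter ECS arrays. The filter thus partly set the direction. The call at 2 h after 7 shocks was lost at 0.83 with the larger pseudocount. Itgb5 has 4 probe sets, and after 1 shock all 4 were above sham at 2 h (0.78 to 2.49) and at 6 h (0.70 to 2.04). After 7 shocks, 3 of the 4 were above sham at 2 h, and the fourth read 5.2 against 6.9. At 6 h after 7 shocks the dimmer probe sets gave 0.10, -0.05 and -0.76. The brightest of them carries a cross-hybridisation suffix, while 2 of the dimmer ones do not.

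The 250 bases before the Itgb5 start (chr16:33829415-33829664, plus strand, GRCm38.p6) are printed because all of this gene's probe sets lay on the same side of sham after a single shock. Capitals mark 3 GC boxes.
Itgb5: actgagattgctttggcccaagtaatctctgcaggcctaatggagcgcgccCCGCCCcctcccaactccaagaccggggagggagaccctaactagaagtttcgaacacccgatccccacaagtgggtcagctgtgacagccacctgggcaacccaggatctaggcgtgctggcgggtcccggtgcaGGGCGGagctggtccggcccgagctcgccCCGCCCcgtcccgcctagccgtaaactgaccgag

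Start regions were in the RefSeq table for 11 of the 15 genes. A GC box (GGGCGG, either strand) was in the window of 9 of the 11 (Col1a2, Col4a1, Col4a2, Itga3, Itgav, Itgb1, Itgb5, Itgbl1 and Lamb1), against 35.7% of all 32851 windows, and Col4a1 and Col4a2 share one such box. CCAAT on either strand was in 6 of the 11, against 37.4% of windows. The site letters of activity-induced factors were in none of the 11: TGAGTCA (AP-1) is in 5.2% of all windows, TGACGTCA (CRE) in 1.79%, GCGTGGGCG (EGR) in 0.612% and the CArG box in 1.63%. TATAAA was in none either, against 13.6% of windows. The members were counted by gene and the background by window. The background also covered all genes in the promoter table, not those on the array. The shares are therefore unlike, and no enrichment is drawn from them. These are letter matches over 300 bases and say nothing about the factors.

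Of the genes with an Itgb name that encode no subunit, Itgb1bp1 differed most. Its protein binds the tail of the Itgb1 subunit and restrains integrin activation. It read 217.8 (1 shock, 2 h), 200.7 (1 shock, 6 h), 118.2 (7 shocks, 2 h) and 159.1 (7 shocks, 6 h), against 47.1 on the sham array. All 4 ECS arrays were higher, by 2.31, 1.67, 0.80 and 1.25 on the log2 scale, and none of its 5 readings was below its array's median. On the brightest Itgb1 probe set the same single-shock arrays were the low ones. The second Itgb1 probe set above the limit was instead lowest at 6 h after 7 shocks (-1.08). A link between the 2 genes was not tested. Itgb1bp1 has a single probe set, so no second reading was available. Itgbl1, a secreted protein with integrin-like repeats, read 82.0, 47.4, 70.3 and 60.8, against 58.8, all within 2-fold of sham. Itgb3bp, a centromere and nuclear receptor cofactor gene, read 8.4 to 32.3, and Itgb1bp2, a muscle gene, 0.4 to 10.8.

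The 57 genes below the limit gave few readable signals. For 44 of them the brightest probe set was under the array median on all 5 arrays, and 13 reached it on 1 or more arrays. The leukocyte integrin chains were low throughout, with Itgal at 0.4 to 4.2, Itgax at 0.8 to 7.9, Itgam, the microglial complement receptor chain, at 3.0 to 11.2, and Itgae at 1.1 to 19.4. Itgb2, the beta chain that pairs with Itgal, Itgam and Itgax, read 26.5 at 6 h after 1 shock and 2.2 to 4.2 on the other arrays. Platelet chains were also dim, with Itga2b at 1.8 to 3.7 and Itgb3 at 0.5 to 18.1. Itga9, a tenascin receptor chain, read 8.8, 5.4, 52.6 and 30.2 on the ECS arrays, against 1.8 on the sham array, and Itga8, 0.1, 4.7, 43.9 and 0.9 against 15.9. Itga5, the fibronectin receptor chain, read 8.3, 3.9, 30.0 and 12.5 against 1.7. Itga9 was thus brightest on both 7-shock arrays. Another of its dim probe sets read 5.2, 1.2, 17.8 and 31.4 on the ECS arrays, against 7.9 on the sham array. A further Itga9 probe set read 1.6, 10.9, 0.6 and 13 against 8.8, without that order. Each group is 1 array, so no bright reading of this kind could be repeated within its group, and no fold is drawn from them. The others, Itga2, Itga4, Itgb2l, Itgb4, Itgb6 and Itgb7, stayed at or below 17.4.

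Dim collagens with 1 outstanding array were few. Col22a1, found at tissue junctions, read 4.6, 0.7, 5.8 and 6.0 on the ECS arrays and 36.0 on the sham array, and Col19a1 read 6.3, 4.9, 2.1 and 16.3 against 35.6. For both the sham array held the highest value. Col26a1 read 55.7 at 6 h after 1 shock and 3.3 to 19.5 elsewhere. Col11a2, a cartilage fibril chain, read 35.2 at 6 h after 7 shocks and 3.1 to 8.5 elsewhere. Col25a1, the neuronal transmembrane collagen found in amyloid plaques, read 6.9, 15.4, 17.7 and 24.4 on the ECS arrays, against 22.8 on the sham array. Type III (Col3a1) and type VI (Col6a1, Col6a2, Col6a3), typical of fibroblasts, read 0.7 to 26.0 and 0.3 to 19.1. Type XVIII (Col18a1), a basement membrane collagen, read 0.8 to 31.3, and type XV (Col15a1) 4.3 to 22.7. Col5a1, an organiser of type I fibrils, was even at 10.8 to 12.8. Col2a1 and Col20a1 reached 28.7 and 38.5, Col9a3 32.6, and Col7a1 26.2. The remaining 11 (Col5a2, Col5a3, Col8a1, Col9a1, Col9a2, Col10a1, Col11a1, Col12a1, Col13a1, Col14a1 and Col17a1) stayed at or below 20.3, and Col16a1 at or below 23.6.

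Comparisons among the ECS arrays do not use the sham array. At 2 h, 7 shocks against 1 put Itgb1 (1.37) and Lamb3 (1.20) higher and Lamc1 (-2.15), Lamb1 (-1.88) and Itgb1bp1 (-1.51) lower, beside a background of 13.7% of genes past 2-fold (6.92% higher, 6.83% lower). The call of Itgb1bp1 was lost at -0.88 without rescaling. The split of higher and lower was 4 and 2 without rescaling and 3 and 3 after quantile normalization. At 6 h, 7 shocks against 1 put Col1a1 (2.29), Itgb1 (1.48), Lamc1 (1.38) and Itga3 (1.29) higher and Col4a2 (-1.15) lower, with a background of 16.5% (7.91% higher, 8.59% lower). Lamc1 thus stood 2-fold or more apart in both, in opposite directions.

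Between 6 h and 2 h after 1 shock, Col4a2 was higher at 6 h (1.02) and 4 genes were lower: Col1a2 (-2.73), Lamc1 (-2.68), Col1a1 (-1.56) and Itgbl1 (-1.31). The call of Col4a2 was lost at 0.87 with the larger pseudocount and that of Itgbl1 at -0.78 without rescaling. The background was 15% (7.41% higher, 7.59% lower). After 7 shocks, Lamb1 was higher at 6 h than at 2 h (1.19), and Col1a2 (-2.04) and Lamb3 (-1.51) were lower, beside 12.9% (6.3% higher, 6.65% lower). After quantile normalization 2 were higher and 2 lower. Col1a2 was the 1 gene past 2-fold in the same direction in both time comparisons, which share no array, though its dimmer probe set gave -0.72 after 1 shock and 1.00 after 7 shocks. The single-shock 6 h array held the lowest value for 6 of the 15 genes, against 5 for the sham array and 1 or 2 for each other array. Over all genes, the comparisons with this array had 14.1% to 16.5% past 2-fold, against 12.3% to 13.8% in those without it.

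Partner genes of the scaffold were read from lists chosen with earlier results of these data known. Of 32 other matrix proteins, 28 were on the array and 10 above the limit. None of these was past 2-fold at 2 h after 1 shock or at 6 h after 7 shocks, against a background of 12.3% and 13.8%. At 2 h after 7 shocks, Vcan, a perineuronal proteoglycan, and Efemp1, an elastic fibre protein, were higher (1.27 and 1.10), and both dimmer Vcan probe sets were above sham on all 4 ECS arrays. At 6 h after 1 shock, Eln, elastin, and Reln, a secreted guidance protein, were lower (-1.78 and -1.01), with -0.66 on a dimmer Eln probe set. Fn1, fibronectin, read 25.2, 36.7, 33.2 and 20.7 on the ECS arrays, against 27.0 on the sham array, all within 2-fold. Sparc, a collagen-binding glycoprotein, read 2174, 3153, 2843 and 2579, against 1974 on the sham array, and its centred differences were 0.27, 0.28, 0.02 and -0.10.

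Genes of collagen processing and turnover were mostly dim, with 6 of 24 above the limit. P4ha1, a subunit of the prolyl hydroxylase that stabilises collagen helices, read 63.5, 79.8, 48.1 and 267.6 on the ECS arrays (1 shock 2 h, 1 shock 6 h, 7 shocks 2 h, 7 shocks 6 h), against 51.8 on the sham array. The last of the ECS arrays was the high one, at 1.86, while a dimmer P4ha1 probe set gave -0.76 there. Mmp24, a membrane metalloprotease of neurons, was at -1.13 at 2 h after 7 shocks, and at -0.82 on a dimmer probe set. On their brightest probe sets the inhibitors Timp2 and Timp3 stayed within 0.47 of sham, and Timp4 between -0.72 and 0.48. Other probe sets above the limit passed 2-fold on 1 array each, Timp2 at 6 h after 1 shock (1.27), Timp3 at 2 h after 7 shocks (1.15) and Timp4 at 6 h after 7 shocks (-1.56).

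The integrin signalling list had 19 of 22 genes above the limit, and on their brightest probe sets its members past 2-fold were all on the high side of sham. There were 5 higher and 0 lower at 2 h after 1 shock, 3 and 0 at 6 h after 1 shock, 5 and 0 at 2 h after 7 shocks, and 5 and 0 at 6 h after 7 shocks, against 5.98%, 6.74%, 6.57% and 6.78% of all genes at least 2-fold higher. All 4 comparisons use the same sham array. On it Actn1 (11.6), Actn4 (15.2), Vcl (18.4) and Vasp (23.3) read below the limit of 24.9, so they passed it through brighter ECS arrays. For these genes a 2-fold lower reading was hardly open, and the filter partly set the counts. The others past 2-fold read 25.9 (Zyx) to 160.3 (Rap1b) on the sham array. Of the dimmer genes above the limit, 20%, 21.6%, 20.7% and 21.4% were past 2-fold either way. The list medians were 0.36, 0.22, 0.26 and 0.57, and in the comparisons among ECS arrays they lay between -0.27 and 0.35.

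Several of these genes encode proteins that link adhesion sites to actin. Talin (Tln1), which joins integrin tails to actin, lay between -0.23 and -0.10 on its brightest probe set, within 2-fold of sham. Actn4, an alpha-actinin that crosslinks actin, read 86.7, 56.3, 40.3 and 103.5 on the ECS arrays, against 15.2 on the sham array (2.55, 1.41, 0.83 and 2.19). Actn1, its relative, read 35.7, 46.1, 41.7 and 151.7, against 11.6 (1.66, 1.49, 1.24 and 3.09). For both, all ECS arrays were above a sham reading that lay under its array's median of 23.4. Both dimmer Actn1 probe sets were below sham at 2 h after 1 shock and at 6 h after either number of shocks. Zyx, a stretch-responsive adhesion protein, read 82.7, 31.8, 34.7 and 116.9, against 25.9, and was high at 2 h after 1 shock (1.76) and at 6 h after 7 shocks (1.64), while a dimmer probe set gave 0.06 and 2.02. Vcl, vinculin, which couples integrin adhesions to actin, was at 1.59, 1.51, -0.18 and 1.40 on its brightest probe set and at 0.78, -1.12, 0.97 and 0.37 on a second one above the limit.

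Kinases, GTPases and adaptors of the list are given next. Ptk2b, a calcium-sensitive adhesion kinase of neurons, was at 0.56, 0.51, 1.38 and 0.97 against sham, with readings of 193.2, 271.5, 533.8 and 397.0 against 143.7. Rap1b, a small GTPase that activates integrins, was at 1.00, 0.63, 1.21 and 0.92 on its brightest probe set. Its other probe sets above the limit were within 2-fold of sham, at 0.09 and 0.66 at 2 h after 1 shock and at -0.09 and 0.00 at 2 h after 7 shocks. Src, the adhesion tyrosine kinase, was at -0.08, -0.96, 1.63 and -0.29 on its probe set above the limit. A second Src probe set, below the limit by its mean, read 31.0, 0.3, 263.8 and 150.4 on the ECS arrays, against 1.4 on the sham array, so it was high on both 7-shock arrays. Integrin-linked kinase (Ilk) lay between -0.77 and -0.16, within 2-fold. The adaptor Crk lay between -0.64 and -0.48 on its brightest probe set, but a second one above the limit was above sham on all 4 ECS arrays (0.18 to 0.37). A further Crk probe set above the limit was at 1.11 at 6 h after 1 shock and at -1.11 at 6 h after 7 shocks.

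**Figure D5:**
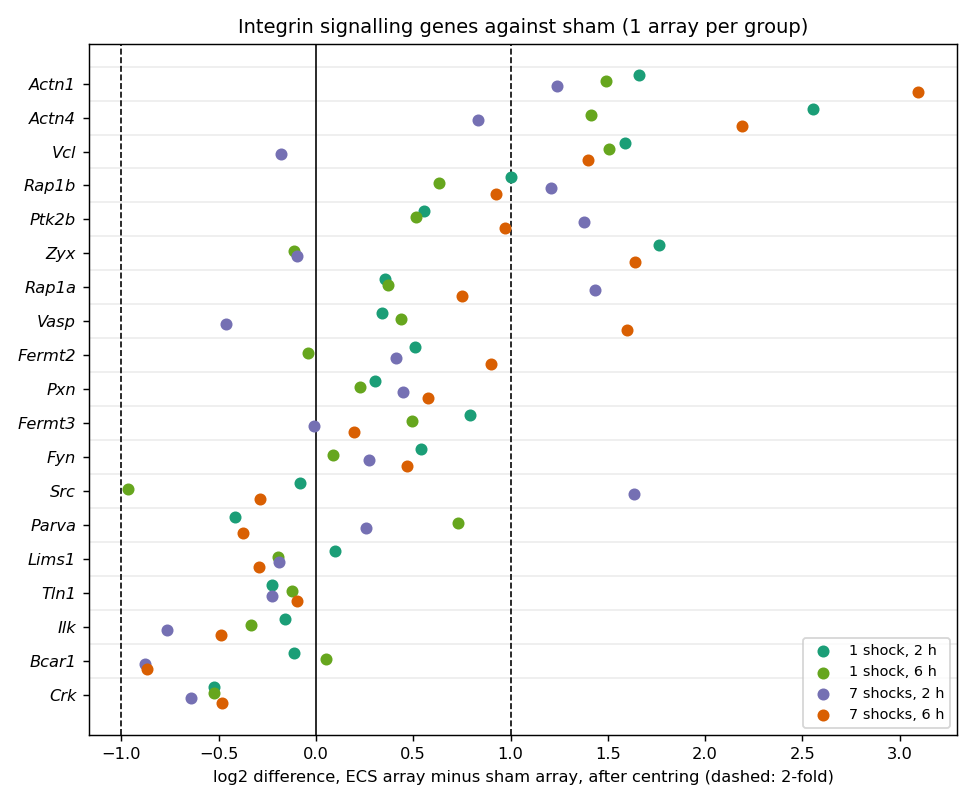
Log2 difference from the sham array (x axis, after centring) for the brightest probe set of the 19 integrin signalling genes above the limit on each ECS array, ordered by their mean over the 4 ECS arrays; dashed lines mark 2-fold and each point is 1 array against 1. No point lies left of the lower 2-fold line, the Actn1 points reach 3.09, and all Tln1, Ilk and Crk points lie left of 0 within 2-fold.

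Among other matrix receptors, 11 of 15 genes were above the limit, and 1 or 2 of the 11 passed 2-fold against sham in each ECS group, a share around the background of 12.3% to 14.1% of all genes. Gpc1, a heparan sulfate proteoglycan, was higher at 2 h after 1 shock (1.18) and lower at 2 h after 7 shocks (-1.08). Its relative Gpc4 was higher at 2 h after 7 shocks (1.20) and lower at 6 h after 7 shocks (-1.02). Cd151, a tetraspanin that binds laminin receptor integrins, was at 0.91, 1.02, 0.78 and 0.22 on the ECS arrays in the order of groups above, and at 0.54, 0.81, 0.13 and -0.43 on a second probe set above the limit. Dag1, dystroglycan, was at -0.58, -0.32, -0.89 and -0.56 on its brightest probe set, and a second one above the limit gave 0.50, -0.28, 0.24 and 0.55. The collagen receptor Ddr1 stayed within 0.51 of sham on its brightest probe set.

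Markers of other cell types also differed between arrays, to unequal degrees, and their part in the values above was not tested. Astrocyte markers, 7 of 7 above the limit, summed to 2556 to 3025 on the ECS arrays and 2726 on the sham array, with 1 of them past 2-fold in the 4 comparisons with sham (Aldh1l1, lower at 6 h after 1 shock). Endothelial markers above the limit were 2 of 8. Cldn5 read 28.7, 105.4, 36.2 and 48.8 on the ECS arrays, against 33.0 on the sham array, and Slco1a4 read 20.1, 57.9, 25.3 and 42.5 against 55.0. The rescaled signals of the 8 endothelial markers summed to 132.6 to 294.5 on the ECS arrays and to 196.5 on the sham array. The top was at 6 h after 1 shock, where Tek, a marker below the limit, read 102.3 against 7.2 to 25.6 elsewhere. On that array Col4a2 was highest, whereas Col4a1 was at 0.11 from sham. Pericyte and smooth muscle markers, 4 of 9 above the limit, summed to 360.2 to 563.0 on the ECS arrays and 519.7 on the sham array. Fibroblast and meningeal markers summed to 95.4 to 186.2 on the ECS arrays and 162.6 on the sham array, with 1 of 7 above the limit and Lum, Dcn and Ogn all dim. Microglial markers, 7 of 9 above the limit, summed to 1924 to 2138 on the ECS arrays and 2081 on the sham array. Single microglial markers were nonetheless past 2-fold lower, P2ry12 (-2.24), Aif1 (-1.58) and Csf1r (-1.52) at 2 h after 7 shocks, P2ry12 (-1.94) and Csf1r (-1.17) at 6 h after 7 shocks, Csf1r (-1.31) at 2 h after 1 shock and P2ry12 (-1.02) at 6 h after 1 shock, and none was higher. A second Csf1r probe set above the limit gave -0.34 at 2 h after 1 shock, and 0.10 (2 h) and 0.24 (6 h) after 7 shocks. It thus repeated none of the Csf1r calls. Laptm5, within 2-fold, was above sham on all 4 ECS arrays (0.76 to 0.97), and C1qb was at 0.90 at 2 h after 7 shocks. No blood cell marker was above the limit. Choroid plexus and ependymal markers had 1 of 6 above it, with Ttr at 0.7 to 28.7. In tissue RNA of this kind, fewer cells of a type and less RNA per cell cannot be told apart.

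Control ratios differed between arrays without a common order. The 3′ to 5′ signal ratio of the Gapdh control was 8.77 (1 shock, 2 h), 5.37 (1 shock, 6 h), 5.88 (7 shocks, 2 h) and 5.55 (7 shocks, 6 h), against 6.67 on the sham array. That of beta-actin was 0.889, 1.10, 0.783 and 0.593 on the same ECS arrays, against 0.799 on the sham array, and was highest on the single-shock 6 h array, where the Gapdh ratio was lowest. After centring, the sham array was the lowest of the 5 for Lama1, Itgb5, Itgb1bp1, Col4a1 and Col4a2 and the highest for Lamc1, Lamb1, Itga6 and Itgb1. Lama1, Itgb5 and Col4a2 read below the brightness limit on the sham array, so the filter partly set their order. With 1 array per group, the state of that single sham array and the effect of the shocks cannot be told apart.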

How the data were processed

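Per the labels, VMH was taken by laser microdissection, and RNA pooled from 2 or 3 animals was amplified and hybridised to 1 Affymetrix array per group. The authors deposited MAS5 signals, a linear intensity for each probe set, per the submitters' processing notes. Software version, target intensity, detection calls and genome build are not stated there. The members and gene lists were chosen with earlier results of these data known.

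Of 22690 probe sets, 64 controls, 691 with several gene symbols and 1555 without one were removed. Of the 20380 used, 20351 had a gene ID found in RefSeq. Log2 was taken of the signal plus 1.2, a pseudocount at the 10th percentile of values. The brightness limit kept the top 50% by mean log2 signal (10402 probe sets, 6650 genes). Arrays were then centred on the median of these, and the brightest kept probe set stood for its gene. There were 8 comparisons of 1 array with 1, called at 2-fold. Members below the limit are given as deposited signals only. Genes were named by rule: the 4 members furthest each way per comparison past 2-fold, the 10 brightest, 4 on each side of the limit, both chains of each type IV pair, and per list those furthest from sham. Other dim members, and list genes named beyond the one furthest each way from sham (Fn1, Sparc, Tln1 and the like), were chosen after their values were seen.

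The 8 alternatives were no rescaling, quantile normalization, a pseudocount at the 25th percentile (6.1), no filter, the top 25%, a filter on the 3 arrays not compared, averaging all kept probe sets of a gene, and leaving out probe sets suffixed _x_at or _s_at. A filter without the single-shock 6 h array was added after the data were seen. The code was tested on simulated data. Tables were computed in Python 3.11.15 with pandas 2.3.3, numpy 2.4.6 and scipy 1.17.1, and plots drawn with matplotlib 3.10.9.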

Additional observations from a re-analysis of the deposited data

Results flagged for a closer look

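Lamc1 was picked out because its 7-shock and single-shock arrays differed past 2-fold in opposite directions at the 2 times, by -2.15 at 2 h and 1.38 at 6 h, so that the contrast of shock number differed by 3.53 on the log2 scale between 6 h and 2 h. The 4 readings behind it were 19.7 and 36.1 after 7 shocks, and 58.6 and 12.3 after 1 shock, at 2 h and 6 h in each case. The difference was not tested, since each group is 1 array, and the second Lamc1 probe set gave -0.20 and -0.65.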

How the results depend on the processing

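No paired analysis was possible because each group is 1 array without a replicate. The number of members past 2-fold stayed within 1.5 times the main count under quantile normalization, the larger pseudocount, the filter on the arrays not compared, the mean of probe sets, the exclusion of cross-hybridising probe sets and the filter without the single-shock 6 h array (run for the 5 comparisons that do not use it), in every comparison run. Without rescaling, the same held except at 6 h after 7 shocks against sham, where 7 members passed in place of 4. Without a filter on low values all 72 members counted, and 33 passed at 2 h after 1 shock, 36 at 2 h after 7 shocks, 35 at 6 h after 1 shock and 36 at 6 h after 7 shocks against sham. In the same setting 28 passed for 7 shocks against 1 at 2 h, 37 at 6 h, 34 for 6 h against 2 h after 1 shock and 29 after 7 shocks, beside 24.5% to 29.6% of all genes. Of the 72 members 57 lie below the limit, whereas 6650 of all 12393 genes lie above it. No equally dim set of genes was compared, so these counts support nothing about the family. In the top 25% of probe sets 2 members were left, Itgav and Itgb1bp1, and the count was 1 for 7 shocks against 1 at 2 h and for the comparisons with sham except 7 shocks at 2 h, and 0 in that one and in the remaining 3. For single genes, 314 of 334 repeats of a called difference stayed past 2-fold in the same direction, 20 fell short of 2-fold and none changed sign. These repeats mostly read the same probe set on another scale or filter, so a change of sign was hardly possible. Members that a setting dropped were not counted, which left 4 such repeats in the top 25%. Between probe sets of 1 gene signs did differ, as for Col4a1 at 2 h after 1 shock (1.10 and -2.58) and Col1a2 at 2 h after 7 shocks (1.73 and -1.13). After centring, both Lamc1 probe sets were below sham on all 4 ECS arrays. As deposited, the second one read 31.8 at 6 h after 1 shock, above its 28.8 on the sham array. With 1 array per group and 13 of 15 members in the dimmer 50%, signal over background and the lack of replicates limit every value here.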
